A study of Mus musculus with 6 samples.

Results

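Neutrophils and monocytes leave the blood for a tissue along gradients of secreted attractants. In MLO-Y4 cells, an osteocyte-like mouse line, 4 genes for such secreted factors were examined: the chemokines Cxcl2, Cxcl5 and Ccl2, and Csf3, which encodes granulocyte colony-stimulating factor (G-CSF). They are 4 of the 2065 genes in the deposited table and were found there by symbol, 1 row each. They had been chosen by their rise under the hypoxia label in an earlier reading of the same values, so their levels and changes are described here without a test.

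The RNA came from wild-type MLO-Y4 cells, a single immortalised line with osteocyte features. Of 6 messenger RNA libraries, 3 are labelled normoxia (20% O2, replicates 2, 3 and 4) and 3 are labelled hypoxia (2% O2 in a hypoxic chamber, replicates 1, 2 and 4). All titles give 24 h, whereas the descriptions give 24, 25 and 26 h in turn within each label. Nothing in the labels says that the replicates were separate cultures, so the spread and the p-values below may reflect technical variation.

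Only genes past the authors' own thresholds for a difference between the labels are in the table, and the sequencing depth is unknown. The smallest absolute log2 difference listed is 1.0. Its entries are log2(value + 1) of a linear value whose unit has no name and may or may not be per transcript length, so levels are not compared between genes. The labels themselves are in doubt. Of 32 targets of hypoxia-inducible factor (HIF), the oxygen-sensitive transcription factor, 20 were in the table, and by limma's test (Benjamini-Hochberg adjusted p under 0.05) 19 of them were lower in the libraries labelled hypoxia and 1 was higher. Over all tested genes 20.6% were lower and 79.4% higher. The glucose transporter gene Slc2a1 was at 10.85 ± 0.10 (SD, n = 3) under the normoxia label and at 7.72 ± 0.12 under the hypoxia label. Every direction below is therefore by label only. Of 12 osteocyte markers 1, podoplanin (Pdpn), was in the table, so the labelled cell type could not be checked with the others.

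Cxcl2 and Cxcl5 belong to the CXC chemokines that carry the amino acids glutamate, leucine and arginine (ELR) just before the first cysteines. These ELR+ chemokines act on the receptor Cxcr2 and draw neutrophils. Ccl2, also called MCP-1, has adjacent cysteines, acts on the receptor Ccr2 and draws monocytes. G-CSF acts on the receptor Csf3r, drives the formation of neutrophils in bone marrow and releases them into the blood. The genes are classical targets of NF-kB, C/EBP and AP-1 factors downstream of interleukin-1, interleukin-17, tumour necrosis factor and Toll-like receptors, and several of their messages are short-lived because of AU-rich elements.

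The stretch that sets the class of a chemokine is shown in 45 coding bases, 5′ to 3′, from GENCODE M21 transcripts (GRCm38), for the 3 chemokines among the 4 genes and for Cxcl1 and Cxcl3, their neighbours on chromosome 5. Capitals mark the ELR codons where present and the first pair of cysteine codons.
Cxcl2: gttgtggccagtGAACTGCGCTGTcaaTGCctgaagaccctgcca
Cxcl5: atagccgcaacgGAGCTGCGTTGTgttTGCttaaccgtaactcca
Cxcl1: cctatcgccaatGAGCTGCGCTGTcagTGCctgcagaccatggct
Cxcl3: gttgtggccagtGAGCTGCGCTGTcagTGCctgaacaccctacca
Ccl2: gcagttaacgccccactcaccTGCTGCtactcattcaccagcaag
The ELR codons and the spaced cysteine codons stand in all 4 CXC genes, and Ccl2 has neither. The coding parts of Cxcl2 and Cxcl3 are the same at 89.8% of 303 aligned bases, and their transcripts share an identical run of 110 bases, so the authors' counting may have divided reads between them. Cxcl2 and Cxcl1 are identical at 78.7% of aligned coding bases, with a longest shared run of 23 bases. For Cxcl2 and Cxcl5 the identity is 64.7% and the longest run 12 bases, and for Ccl2 and its neighbour Ccl7 they are 72.4% and 23 bases.

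The RefSeq promoter table (GRCm38.p6), which gives 250 bases before and 50 after each gene start, matched 1 of the 4 genes, Cxcl2. Cxcl5, Ccl2 and Csf3 had no entry. The Cxcl2 promoter is shown from 250 to 31 bases before the start (plus strand, chr5:90903649-90903868), beside shorter stretches of Cxcl1 (plus strand, chr5:90891139-90891214) and Cxcl3 (plus strand, chr5:90785993-90786070). Capitals mark matches to the NF-kB consensus, searched on both strands and written by name only.
Cxcl2: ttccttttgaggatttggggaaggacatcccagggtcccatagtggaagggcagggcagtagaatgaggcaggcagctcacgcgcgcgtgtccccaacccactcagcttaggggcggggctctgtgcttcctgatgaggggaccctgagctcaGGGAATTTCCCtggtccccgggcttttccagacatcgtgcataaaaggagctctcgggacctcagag
Cxcl1: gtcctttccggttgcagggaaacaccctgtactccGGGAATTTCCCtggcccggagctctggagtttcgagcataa
Cxcl3: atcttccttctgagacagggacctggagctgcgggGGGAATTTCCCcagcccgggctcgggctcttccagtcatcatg
The letters GGGAATTTCC begin 97 bases before the start in Cxcl2, 71 in Cxcl1 and 73 in Cxcl3, and each overlaps a second match on the other strand, because the stretch reads almost the same both ways. The consensus occurs in 4.35% of 27025 promoters of the same length. In the Cxcl2 window the C/EBP core TTGCNNAA, the AP-1 letters TGANTCA, the hypoxia response core ACGTG and the TATAAA box were not found. The Cxcl1 window holds ACGTG 196 bases before the start, and the Cxcl3 window holds it on both strands, beginning 155 and 154 bases before the start, and TATAAA 30 bases before it. In all promoters they occur in 10.8%, 7.93%, 19.7% and 14.2%.

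The messages also differ in the pentamer ATTTA, the core of AU-rich elements, at which proteins such as tristetraprolin bind and speed decay. The 30 bases richest in this pentamer after the stop codon are shown for each gene, with ATTTA in capitals.
Cxcl2: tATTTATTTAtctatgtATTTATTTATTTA
Csf3: gtttATTTAtctctATTTAatATTTAtgca
Cxcl5: atctcacaagtgtATTTAgcaaaaatattt
Ccl2: taatattaaacttATTTAacttattgatgt
Cxcl2 has 11 such pentamers in 734 bases of 3′ untranslated region (15 per kilobase), more per kilobase than 99.5% of 19109 coding genes. Csf3 has 6 in 669 bases, Cxcl5 has 5 in 1111 bases and Ccl2 has 1 in 275 bases. These are 8.97, 4.50 and 3.64 per kilobase, beside a median of 1.08 over all coding genes and 1.31 over the listed ones.

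The neutrophil attractant Cxcl2 (ENSMUSG00000058427, chromosome arm 5q) was at 4.47, 3.89 and 3.36 on the log2(value + 1) scale in replicates 2, 3 and 4 of the normoxia label, and at 8.19, 8.11 and 8.40 in replicates 1, 2 and 4 of the hypoxia label. The libraries of the normoxia label spread over 1.11 on this scale, and the lowest library of the hypoxia label lay 3.64 above the highest of the normoxia label. The difference of means was 4.33 ± 0.26 (standard error, limma, n = 3 per label). In linear values the means were 14.8 and 301.1, a ratio of 20.4. The ratio of single libraries ran from 13.0 to 36.4.

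Cxcl5 (ENSMUSG00000029371, 5q), whose protein attracts neutrophils through the same receptor, was at 5.42, 5.42 and 4.95 in replicates 2, 3 and 4 labelled normoxia and at 9.78, 9.79 and 9.89 in replicates 1, 2 and 4 labelled hypoxia. The libraries of the hypoxia label lay within 0.11 of each other. Its difference of 4.56 ± 0.13 was the largest of the 4 genes on this scale and the fourth largest of all 2065. The linear means were 37.8 and 904.7, a ratio of 23.9 with single libraries from 21.03 to 31.9.

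The monocyte attractant Ccl2 (ENSMUSG00000035385, 11q) was at 5.31, 5.14 and 4.99 in replicates 2, 3 and 4 labelled normoxia and at 9.32, 9.40 and 9.53 in replicates 1, 2 and 4 labelled hypoxia. The labels were 4.02 apart at their nearest libraries. The difference was 4.27 ± 0.10, and the linear means of 34.6 and 684.2 gave a ratio of 19.8, with single libraries from 16.6 to 24.0.

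Csf3 (ENSMUSG00000038067, 11q) was at 0.53, 0.58 and 0.52 in replicates 2, 3 and 4 labelled normoxia and at 4.18, 4.15 and 4.005 in replicates 1, 2 and 4 labelled hypoxia. It was close to the bottom of the scale in every library of the normoxia label, where its linear values were 0.444, 0.499 and 0.430. Under the hypoxia label the linear values were 17.1, 16.7 and 15.1. The difference on the log2(value + 1) scale was 3.57 ± 0.10, the smallest of the 4 genes. The ratio of linear means was 35.6, the highest of the 4, with single libraries from 30.2 to 39.7.

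**Figure D1:**
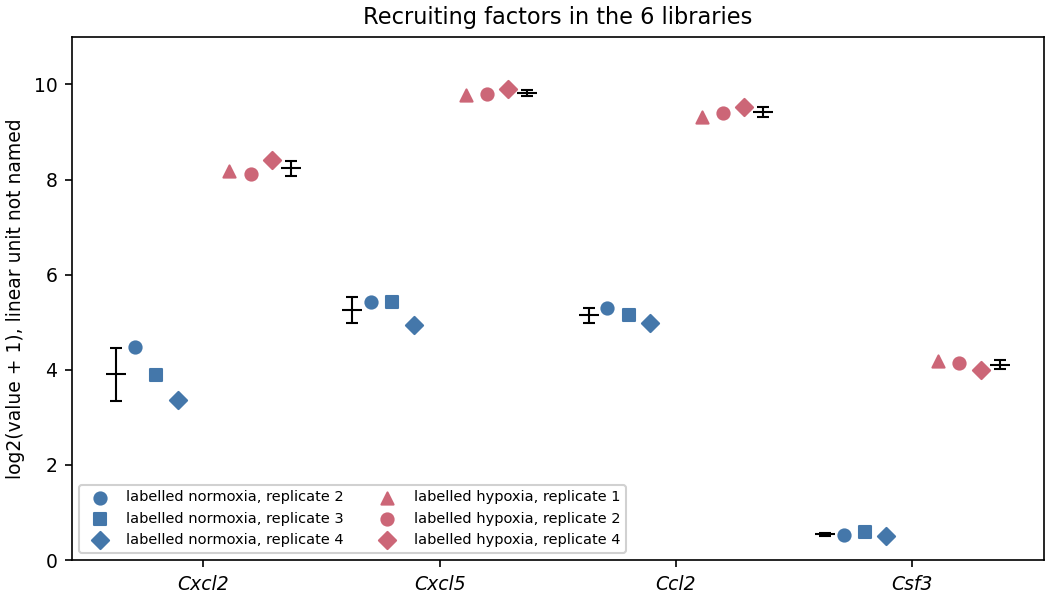
Entries of Cxcl2, Cxcl5, Ccl2 and Csf3 on the log2(value + 1) scale in each library, by label (blue normoxia, red hypoxia) and replicate (marker), with the mean and SD of 3 libraries in black. The labels do not overlap for any of the 4 genes, Cxcl2 has the widest spread under the normoxia label, and Csf3 lies near 0.5 there.

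The order of the 4 genes by size of rise therefore depended on the scale. On log2(value + 1) the order was Cxcl5, Cxcl2, Ccl2 and Csf3, and by the ratio of linear means it was Csf3, Cxcl5, Cxcl2 and Ccl2. The added 1 in the logarithm exceeds the level of Csf3 under the normoxia label and so holds its difference down. With a pseudocount of 0.1 the difference of Csf3 was 4.88 and with a pseudocount of 5 it was 1.96. The single-library ratios of Csf3 and Ccl2 did not overlap, while those of each other pairing of the 4 genes did. Among all 2065 genes Csf3 ranked 11 by the difference and 10 by the ratio, and Cxcl5 ranked 4 and 14. The authors' deposited table of their 15 largest rises holds all 4 genes, at places 4 (Cxcl5), 5 (Cxcl2), 6 (Ccl2) and 11 (Csf3).

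**Figure D2:**
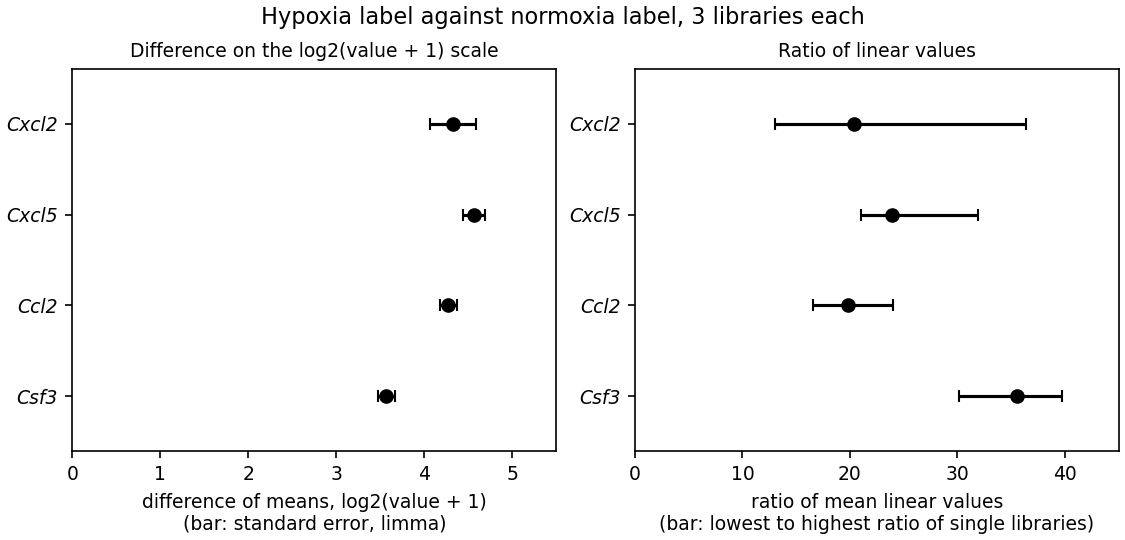
Left, difference of means between the labels on the log2(value + 1) scale with limma's standard error; right, ratio of mean linear values with the lowest and highest ratio of single libraries as bars, 3 libraries per label. Csf3 has the smallest difference on the left (3.57) and the highest ratio on the right (35.6).

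By limma's test, 100% of the 2056 tested genes differed at a Benjamini-Hochberg adjusted p under 0.05, with 79.4% higher under the hypoxia label and 20.6% lower, and the labels did not overlap in 99.9% of listed genes. The selection of the table makes nearly every gene differ and separate, so the separation of the 4 genes says nothing beyond it. The split by direction is not fixed in this way and depends on the scaling. Their place within the table is a matter of size. The median difference of all tested genes was 1.15, and Cxcl5, Cxcl2, Ccl2 and Csf3 lay 3.41, 3.17, 3.12 and 2.41 above it. With trimmed mean (TMM) factors, which bring that median to 0.0036, the 4 differences were 3.28, 3.07, 2.99 and 2.73. Under these factors 543 tested genes were called higher and 512 lower. TMM factors assume that most genes do not differ, which a table selected for differences cannot be taken to meet. Calls kept or lost with them are therefore relative to the table's median.

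The SD of Cxcl2 under the normoxia label was 0.56, larger than that of 98.8% of tested genes. For Cxcl5 it was 0.27 and for Ccl2 0.16, and the median SD over tested genes was 0.137. The SD of Csf3 was 0.04, but its linear values there lie below the added 1, which compresses the spread. On a plain log2 scale with nothing added, chosen after the data were seen, the SD of Csf3 was 0.113, larger than that of 29.4% of 2052 tested genes, and that of Cxcl2 was 0.596, larger than that of 97.3%. All 4 genes were lowest in replicate 4 within the normoxia label. The same library was lowest for 51.5% of tested genes and for 59.5% of those higher under the hypoxia label. The 3 chemokines were highest in replicate 4 within the hypoxia label, where Csf3 was lowest, and 26.3% of tested genes were highest in that library. Its description gives 26 h, as does that of replicate 4 of the normoxia label, and the part of time in this pattern was not tested.

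The genes with the most similar profiles were found by Euclidean distance over the 6 libraries between entries centred on each gene's mean. Nearest to Cxcl2 were Angptl4 (distance 0.471), an inhibitor of lipoprotein lipase, then Ccl2 (0.582) and Cxcl5 (0.594). Nearest to Ccl2 were the cytokine gene Il6 (0.389), Cxcl5 (0.430) and Angptl4 (0.576), and nearest to Cxcl5 were Ccl2, Cxcl2 and Il6 (0.814). Csf3 was at distances of 0.933 to 1.29 from the 3 chemokines. The distance largely follows the size of the difference, which the added 1 holds down for Csf3. With a pseudocount of 0.1, chosen after the data were seen, these distances were 0.523 to 1.06, overlapping the 0.431 to 0.637 among the chemokines. With the added 1, its nearest genes were the stromelysin Mmp3 (0.273), the fatty acid receptor Gpr84 (0.315) and the interleukin subunit Il12b (0.437).

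By gene order in the RefSeq annotation, Cxcl5 and Cxcl2 bound a block of 7 coding genes of the same family, in the order Cxcl5, Ppbp, Pf4, Cxcl3, Cxcl15, Cxcl1 and Cxcl2. Of these 7 ELR+ and platelet chemokine genes 4 were in the table, and all 4 were higher under the hypoxia label and remained so with TMM factors. Cxcl5 and Cxcl2 had been chosen for their rise. Without these, 2 of 2 were higher (2 with TMM factors), beside 79.4% of all tested genes (26.4% with TMM factors). Cxcl1, which adjoins Cxcl2 and also draws neutrophils, was at 7.34, 6.87 and 6.34 in replicates 2, 3 and 4 labelled normoxia and at 10.02, 10.04 and 10.24 in replicates 1, 2 and 4 labelled hypoxia (3.25 ± 0.23). Like Cxcl2, it was widely spread under the normoxia label and lowest in replicate 4. Cxcl3 rose by 2.48 ± 0.10. The median difference of the list was 3.79 beside 1.15 for all tested genes, higher and lower together. The list includes the genes chosen for their rise, and without them its median was 2.86.

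On chromosome 11, Ccl7, the coding gene next to Ccl2 and likewise a monocyte attractant, was higher (6.05 ± 0.15 and 8.05 ± 0.14, difference 2.01 ± 0.10). Ccl7 was the only one of the 12 nearest coding genes of Ccl2 in the table, 6 on each side. Of the 12 coding genes around Csf3, only the clock repressor Nr1d1 was in the table, 3 coding genes away and with the opposite sign (-4.03 ± 0.09).

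Of 38 chemokine ligand genes on the 3 lists 10 were in the table, 8 higher (7 still called with TMM factors) and 2 lower. Of the 8, 3 had been chosen for their rise, and without them 5 of 7 were higher (4 with TMM factors), beside 79.4% of all tested genes (26.4% with TMM factors). The rises outside the 4 genes and the chromosome 5 block were those of Ccl9 (2.31 ± 0.17), an attractant of monocytes and osteoclast precursors in mice, of Ccl7 and of the membrane-bound chemokine Cx3cl1 (1.33 ± 0.14, not called with TMM factors). The lower genes were Cxcl10, an interferon-inducible attractant of T cells, and Ccl4, an attractant of monocytes and lymphocytes. Cxcl10 was at 6.82, 6.91 and 7.08 in replicates 2, 3 and 4 labelled normoxia and at 4.25, 4.37 and 4.24 in replicates 1, 2 and 4 labelled hypoxia (-2.65 ± 0.09). Ccl4 was at 2.96, 2.86 and 3.40 against 0.00, 0.06 and 0.14 in the same libraries (-3.01 ± 0.14). Ccl4 was thus listed at or close to 0 in every library of the hypoxia label. Testing required a linear value of 1 in 3 libraries, so Ccl4 was tested only through the normoxia label and its direction was fixed.

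Among colony-stimulating factors and their receptors, 4 of 13 genes were in the table, all of them ligands and all higher, with 3 still called under TMM factors. One of them, Csf3, had been chosen for its rise, and without it 3 of 3 were higher (2 with TMM factors), beside 79.4% of all tested genes (26.4% with TMM factors). Csf2, which encodes the granulocyte-macrophage factor GM-CSF, resembled Csf3 in its low level under the normoxia label, at 0.60, 0.51 and 0.36 in replicates 2, 3 and 4. It was at 3.57, 3.01 and 3.87 in replicates 1, 2 and 4 labelled hypoxia (2.99 ± 0.20). Its ratio of linear means was 25.8, between those of Csf3 and Cxcl5. Below 1 in linear value in every library labelled normoxia, Csf2 was tested only through the hypoxia label. Its direction among the 3 was thus fixed. The macrophage growth factors Il34 and Csf1 rose by 2.03 ± 0.15 and 1.49 ± 0.09, and the call of Csf1 ended with TMM factors (0.20 ± 0.09; limma, adjusted p = 0.104).

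**Figure D3:**
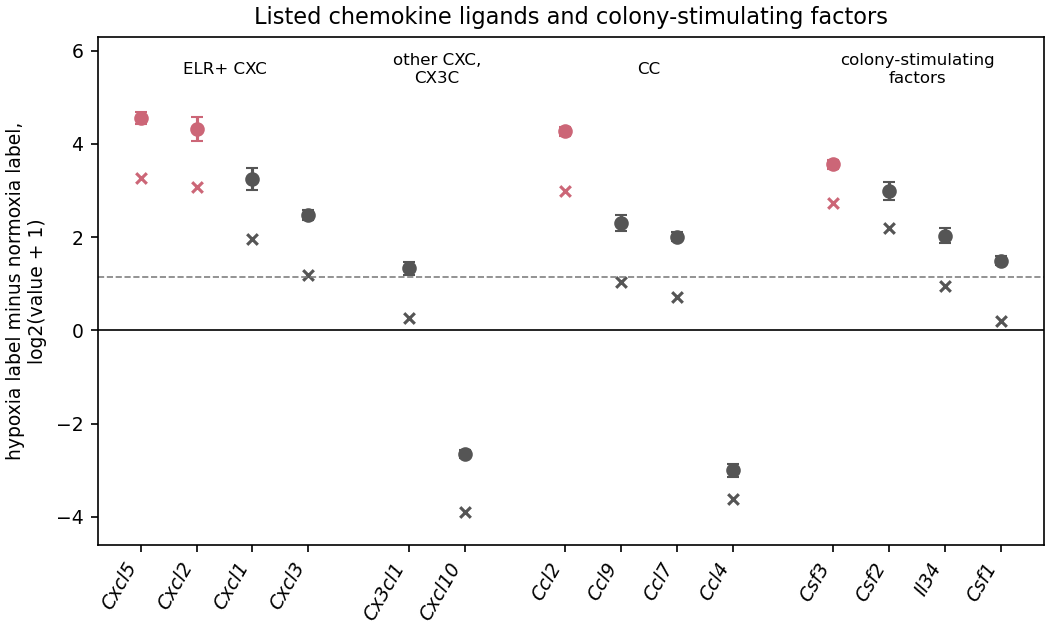
Difference between the labels on the log2(value + 1) scale for every listed chemokine ligand and colony-stimulating factor, with limma's standard error (circles) and with TMM factors (crosses); red marks Cxcl2, Cxcl5, Ccl2 and Csf3, and the dashed line is the median of all tested genes (1.15). The red genes had been chosen for their rise, and Cxcl10 and Ccl4 lie below 0.

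No receptor for these ligands was in the table, where 0 of 23 chemokine receptor genes were listed and Csf3r and Csf1r were missing too. Genes outside the table have no value here, so this does not show that receptors were absent or unchanged. The same holds for the markers of the cells that such factors recruit, and of other cell types. Of 14 neutrophil markers 1 was listed, the antimicrobial peptide gene Camp (0.70 ± 0.01 and 1.71 ± 0.06, higher by 1.01 ± 0.08). Of 14 macrophage and monocyte markers 1 was listed, the lysosomal glycoprotein gene Cd68, which was lower (-1.46 ± 0.11). Of 8 lymphocyte and 8 endothelial markers 0 were listed. The labels name MLO-Y4 cells only, and the part of any other cells in the rise of the 4 genes was not tested. In RNA from whole cultures a change in the number of cells that express a gene cannot be told apart from a change in RNA per cell.

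Upstream of the 4 genes, 9 of 23 listed cytokine, receptor and adaptor genes were in the table and all 9 were higher, with 6 still called under TMM factors and 1, Traf3ip2, below 0. Il1rn, among both the 9 and the 6, averaged 0.229 in linear values under the normoxia label. It was tested only through the hypoxia label, so its direction was fixed. Of all tested genes 79.4% were higher (26.4% with TMM factors), and the list's median difference was 1.57 beside 1.15 for all tested genes. The 1.15 covers lower genes too and the list has none, so the medians are not a like comparison. The interleukin-1 receptor gene Il1r1 rose by 2.11 ± 0.14 and the Toll-like receptor gene Tlr2 by 1.98 ± 0.09. Irak3, an inhibitor of this receptor pathway, rose by 1.74 ± 0.13, its adaptor Myd88 by 1.60 ± 0.10 and the interleukin-17 receptor gene Il17ra by 1.57 ± 0.09. Tlr4, the endotoxin receptor gene, rose by 1.25 ± 0.14, a call that TMM factors ended (0.09 ± 0.11). The ligands Il1a, Il1b, Tnf and Il17a were outside the table.

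Of 20 genes for NF-kB factors and inhibitors 9 were in the table and all 9 were higher, with 6 still called under TMM factors and 2, Relb and Tnip1, below 0, where 79.4% of all tested genes were higher (26.4% with TMM factors). Testing required a linear value of 1 in 3 libraries. Nfkbie and Nfkbid averaged 0.71 and 0.636 in linear values under the normoxia label. They were tested only through the hypoxia label, so their direction was fixed. With 5 required in place of 1, 6 of the 9 were called, beside 1418 higher and 348 lower genes over the whole table. The largest rises were those of Nfkbiz (2.36 ± 0.09), a nuclear cofactor of NF-kB that acts on Cxcl5, Csf3 and Lcn2 in mouse cells, of Bcl3 (1.89 ± 0.17) and of the subunit gene Nfkb1 (1.78 ± 0.09). The kinase gene Ikbke rose by 1.51 ± 0.09, and the inhibitors Nfkbie and Nfkbia rose by 1.42 ± 0.10 and 1.30 ± 0.10, the last not called with TMM factors (0.01 ± 0.10). The list's median was 1.42 beside 1.15 for all tested genes, but the latter include the 20.6% that were lower. No listed gene differs by less than 1.0, so the medians are not a like comparison.

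Of 14 C/EBP, AP-1 and STAT3 pathway genes 6 were in the table, 3 higher and 3 lower, and the directions held with TMM factors. Over all tested genes 79.4% were higher and 20.6% lower (26.4% higher with TMM factors). The list's median difference was 0.06 beside 1.15 for all tested genes. Socs3, a feedback inhibitor of G-CSF and interleukin-6 signalling, rose by 2.21 ± 0.11, Cebpd by 1.87 ± 0.14 and Cebpa by 1.20 ± 0.10. The lower genes were the AP-1 genes Fosl2 (-1.78 ± 0.07), Jund (-1.52 ± 0.10) and Jun (-1.08 ± 0.11).

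Among 12 regulators of the decay of messages with AU-rich elements or stem-loops 4 were in the table, 3 higher (2 still called with TMM factors) and 1 lower. Of all tested genes 79.4% were higher and 20.6% lower (26.4% higher with TMM factors). The list's median difference was 1.74 beside 1.15 for all tested genes. Zc3h12a, which encodes the ribonuclease Regnase-1 that degrades Il6 and other inflammatory messages, was at 2.96, 2.54 and 2.10 in replicates 2, 3 and 4 labelled normoxia and at 5.92, 6.05 and 5.93 in replicates 1, 2 and 4 labelled hypoxia (3.44 ± 0.19). Arid5a, an RNA-binding protein that stabilises Il6 messages, rose by 2.30 ± 0.10. Hnrnpd, an AU-rich element binder, was higher by 1.18 ± 0.07, a direction that TMM factors turned (-0.12 ± 0.07), and Zfp36l1, a relative of tristetraprolin that speeds decay, was lower (-1.05 ± 0.08). Zfp36, the gene for tristetraprolin, was outside the table.

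**Figure D4:**
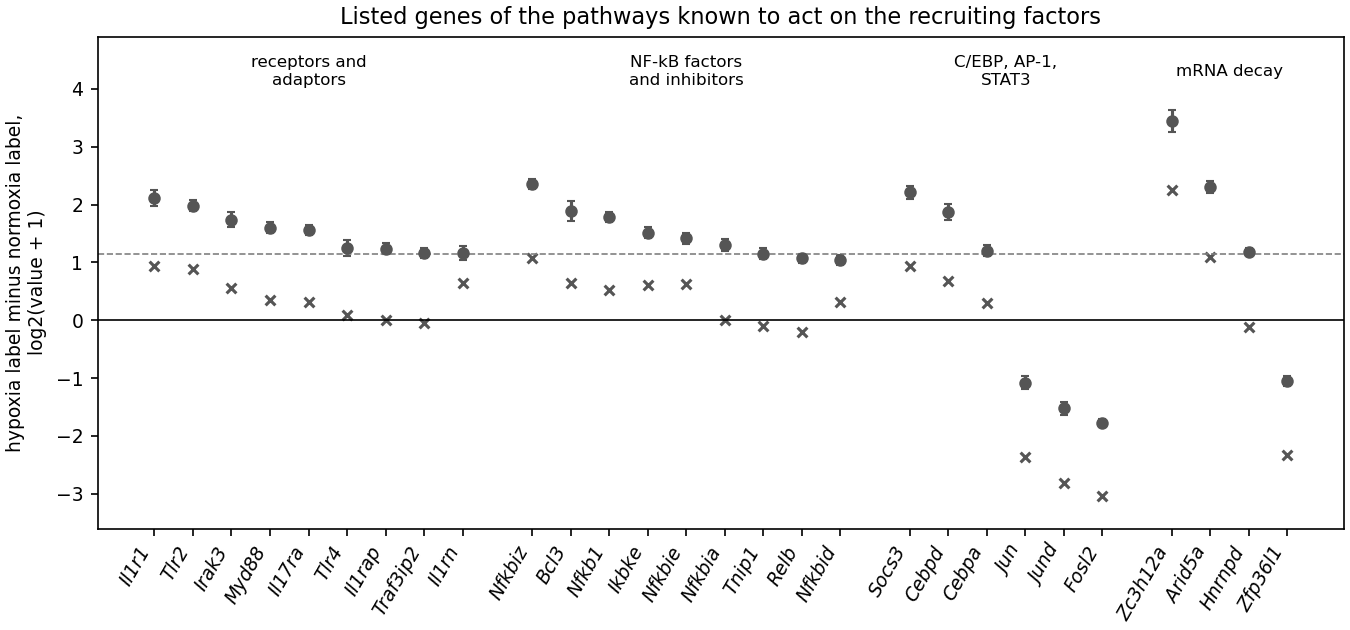
Difference between the labels on the log2(value + 1) scale for the listed receptors and adaptors, NF-kB genes, C/EBP, AP-1 and STAT3 genes and regulators of messenger RNA decay, with limma's standard error (circles) and with TMM factors (crosses); the dashed line is the median of all tested genes (1.15). The NF-kB genes lie between 1.04 and 2.36, Zc3h12a is highest at 3.44, and Jun, Jund, Fosl2 and Zfp36l1 lie below 0.

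Of 19 other genes of leukocyte recruitment, 10 were in the table, 9 higher and 1 lower, and the 9 were still called with TMM factors. Icam1 and Mmp9, both among the 9, averaged 0.358 and 0.0943 in linear values under the normoxia label. They were tested only through the hypoxia label, so their direction was fixed. With a linear value of 5 required in place of 1, 7 of the 9 were called, beside 1418 higher and 348 lower genes over the whole table. The list's median difference was 2.11 beside 1.15 for all tested genes, of which 79.4% were higher (26.4% with TMM factors). Lcn2, an iron-sequestering protein of neutrophils and stromal cells, had the largest difference (5.66 ± 0.41), with Saa3, an acute-phase protein, at 5.35 ± 0.11 and Il6 at 3.99 ± 0.12. The adhesion gene Vcam1 rose by 2.47 ± 0.07, and the interleukin-6 family genes Lif and Il11 by 2.22 ± 0.09 and 2.00 ± 0.10. The lower gene was Ptgs2, the cyclooxygenase of prostaglandin synthesis (-1.07 ± 0.08).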

How the data were processed

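RNA of 6 libraries was sequenced. FastQC 0.12.0, DRAGEN and the genome build GRCm39 (mm39) are named in the submitters' processing notes, without settings. The authors deposited log2 entries per library, a log2 fold change and an adjusted p-value for 2065 genes. Read as log2(value + 1), 100% of entries gave linear values with 3 decimals (tolerance 1e-06). The authors' fold change equals the difference of means. The deposited p-value was not used, nor were 21 further columns, 18 of them repeats and 3 for mice.

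Of the listed genes, 2056 reached a linear value of 1 in 3 or more libraries and were tested with limma 3.58.1 in R 4.3.3 (trend, robust, pseudocount 1), two-sided, with Benjamini-Hochberg adjustment and a threshold of 0.05. Genes below 1 throughout 1 label, such as Csf3, Csf2, Nfkbie, Nfkbid, Il1rn, Icam1, Mmp9, Camp and Ccl4, passed only through the label where they were higher. The filter thus fixed their direction. The fit was tested on simulated data. Standard errors are from this fit. Libraries of 1 label correlated with r from 0.991 to 0.996.

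The 4 genes and all lists were chosen with earlier results of these data known. Genes were named by rule. The rule took the 4 genes, every listed chemokine, receptor and colony-stimulating factor gene, and the 3 nearest profiles per gene. It also took up to 6 of each other list by size of change. Nr1d1, Slc2a1, Ptgs2, Nfkbid, Il1rn, Icam1, Mmp9 and genes that TMM factors turned were named after their values were seen. Motif counts used 1 promoter per gene. Coding and 3′ sequences come from the GENCODE M21 transcript with the longest coding part per gene, read with Python 3.11.15 and aligned with Biopython 1.88. The search for ATTTA and the alignments were chosen after the files were seen. GENCODE M21 and the RefSeq tables are on GRCm38, not the authors' build, so gene positions are given as chromosome arms from the deposited table, and the promoter coordinates are GRCm38.p6. Protein sequences were not used here.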

Additional observations from a re-analysis of the deposited data

How the results depend on the processing

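All 44 differences of the 4 genes under alternatives stayed above 0. With TMM factors they were 3.067 (Cxcl2), 3.276 (Cxcl5), 2.987 (Ccl2) and 2.725 (Csf3), and quantile normalization gave 3.696 (Cxcl2), 3.824 (Ccl2) and 2.983 (Csf3). A pseudocount of 5 gave 4.124 for Ccl2 and 1.962 for Csf3, and a pseudocount of 0.1 gave 4.876 for Csf3. The low level of Csf3 under the normoxia label makes its difference depend on the pseudocount by construction. Leaving out each library in turn gave 4.052 to 4.607 for Cxcl2, 4.404 to 4.641 for Cxcl5, 4.193 to 4.349 for Ccl2 and 3.532 to 3.618 for Csf3.

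TMM factors left 543 of the tested genes called higher where 1633 were called without them, since they assume that most genes in the table do not differ. A table selected for differences cannot be taken to meet that assumption. A filter of 5 in place of 1 left 1418 genes called higher and 348 lower. It left 6 of the 9 higher NF-kB genes and 8 of the 9 upstream genes. Of the 9 other recruitment genes it left 7, and of the 3 C/EBP, AP-1 and STAT3 genes 2. The alternatives gave 836 values for 56 other genes that the rule or the text names, Nfkbid, Il1rn, Icam1 and Mmp9 not included. Of these values, 827 kept direction and call. The call was lost for 5 (Cx3cl1, Csf1, Tlr4 and Nfkbia with TMM factors, Lcn2 with the replicate block). All 4 reversals came with TMM factors (Hnrnpd -0.1155, Traf3ip2 -0.0494, Relb -0.1989 and Tnip1 -0.09404). Calls held as widely over the whole table, where 1632 or 1633 genes stayed higher and 419 to 423 lower with single libraries left out. Keeping a call is therefore not particular to the named genes. The labels share the replicate numbers 2 and 4, but nothing says that these mark shared cultures, and the deviations of same-numbered libraries correlated at 0.08 and -0.07. Replicates 1 and 3 occur in 1 label each, so with the replicate block only replicates 2 and 4 inform the difference. With this block 7 of the 8 higher chemokine ligands were called, and 1627 genes were called higher. The other ligand was Cxcl2, at a difference of 4.34 with a standard error of 0.633, beside 0.261 without the block. Within the 250 bases before the start alone, 3.75% of promoters hold the NF-kB consensus.

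Depth is unknown, so no counting error can be given for low values such as those of Csf3, Csf2 and Ccl4, and genes outside the selected table have no value.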
